A study of Mus musculus with 10 samples.

Results

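The genes described here are 38 components of the RAS-ERK and PI3K-AKT pathways downstream of receptor tyrosine kinases, taken by symbol from the 55573 genes counted in each library. All 38 matched a single row, and all 38 passed the filter on low counts, so no member was left out of the test. The RNA came from bone marrow hematopoietic stem and progenitor cells (HSPCs) of C57BL/6 mice, 16 weeks of age. Both groups had received 500 cGy of total body irradiation, and RNA was taken 6 weeks after it. The mice of the 5 Saline libraries received saline subcutaneously, and the 5 EGF libraries came from mice that received epidermal growth factor (EGF), which binds the receptor EGFR, by the same route. No unirradiated mice are among the libraries, and the sources used here give neither the dose of EGF, nor the sort gate, nor whether mice were pooled. The comparison asks how the level of these mRNAs in irradiated HSPCs differs with EGF.

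Receptor tyrosine kinases that bind their ligand are phosphorylated on their tails and recruit adaptor proteins. Through GRB2 and the exchange factors SOS1 and SOS2 they load RAS with GTP, and RAS activates the kinase cascade of RAF, MEK and ERK. Through PI3K they also produce a membrane lipid that recruits AKT, which relieves the block of the TSC complex on mTOR. ERK induces its own inhibitors, the DUSP phosphatases and the Sprouty proteins. In HSPCs the same components carry signals of KIT, FLT3 and cytokine receptors, and they act largely by phosphorylation, which mRNA counts do not measure.

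Total counts were 6805106 to 8370820 per library. EGF replicate 5 stood apart: 12731 genes had a count in it, against 18734 to 20046 in the other 9 libraries, so counts over the members are given with and without it, as are values of single genes that moved without it. HSPC markers (12 of 12 tested, Kit, Cd34 and Flt3 among them) summed to 2451 to 2685 CPM (counts brought to one common library size with edgeR's TMM factors) in the Saline libraries and to 2687 to 3352 CPM in the EGF libraries. Myb was the largest part of this sum, at 889 to 954 CPM with saline and 875 to 1557 CPM with EGF, highest in EGF replicate 5. Genes of the list lay on both sides of 0, with log2 fold changes of EGF over saline of 0.18 for Kit, -0.09 for Cd34 and -0.01 for Flt3. The plasma cell list (6 genes) summed to 691 to 1493 CPM with saline and 173 to 939 CPM with EGF, the neutrophil list (7 genes) to 11.0 to 361 and 8.56 to 475 CPM, and the stromal and endothelial list (6 genes) to 177 to 813 and 166 to 661 CPM. Jchain was most of the plasma cell sum, at 583 to 1321 CPM with saline and 97.4 to 784 CPM with EGF. Col1a1 (72.0 to 720 CPM over all libraries) and Pecam1 (51.1 to 104 CPM) were most of the stromal and endothelial sum. No other gene of that list exceeded 11.8 CPM. The B cell, T and NK cell and erythroid lists (7 genes each) summed to at most 38.8, 23.1 and 33.0 CPM in any library. Sums over all 10 libraries were 47.2 to 198 CPM for monocytes and macrophages (6 genes), 141 to 275 CPM for megakaryocytes (5) and 164 to 359 CPM for mast cells and basophils (5), and no marker was at 0 in all of them. In EGF replicate 5 the HSPC, B cell and neutrophil sums were the highest of the EGF group and the plasma cell, T and NK cell and mast cell sums the lowest. The part of these cells in the results below was not tested, and in bulk RNA fewer cells of a type and less RNA per cell cannot be told apart. Nothing in the labels ties the libraries to separate mice, and p-values therefore measure only their spread, which may be technical.

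No member passed the test of EGF against saline. With edgeR's quasi-likelihood test, adjusted by Benjamini-Hochberg over 12874 genes, 0 of 38 members were called, where 0.00777% of all genes were, and DESeq2 and limma-voom with quality weights also called 0 members. At an unadjusted p under 0.05, edgeR had 2 members higher with EGF, Dusp6 and Rptor, and 2 lower, Rps6ka3 and Akt1. These are 5.26% of the members in each direction and 10.5% in all, beside 6.14% of all genes that were higher, 2.73% that were lower and 8.87% in either direction. At that threshold DESeq2 had 3 members (7.89%, beside 9.07% of the genes it tested) and limma-voom 9 (23.7%, beside 15.3%). The fitted log2 fold change exceeded 0 for 17 of 38 members (44.7%), beside 48.5% of all genes. Its median was -0.01 over the members and -0.01 over all genes tested, and its median size was 0.136 over the members and 0.235 over all genes. Without EGF replicate 5 the median sizes were 0.0982 and 0.148. Every member had a mean of at least 110.6 counts per library, while the filter kept genes from a minimum count of 10. These sizes are therefore not compared at like depth. The libraries of both groups did not overlap for 1 member, Rps6ka3, which was lower with EGF; 1.65% of all genes were lower in this way, and 1.62% were higher, as 0 members were.

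The intervals show what size of change the libraries could have hidden. For 34 of 38 members the 95% interval of the log2 fold change, not adjusted for the number of genes, lay within 1 on either side of 0, which is a 2-fold change. The exceptions were Nras, Mapk3, Dusp4 and Spry1, all of them far lower in EGF replicate 5 than in the other libraries. Inside 0.5 on either side lay the intervals of 22 members, Grb2, Cbl, Pik3cd and Mtor among them. These counts were 37, with Dusp4 the exception, and 32 without EGF replicate 5.

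**Figure D1:**
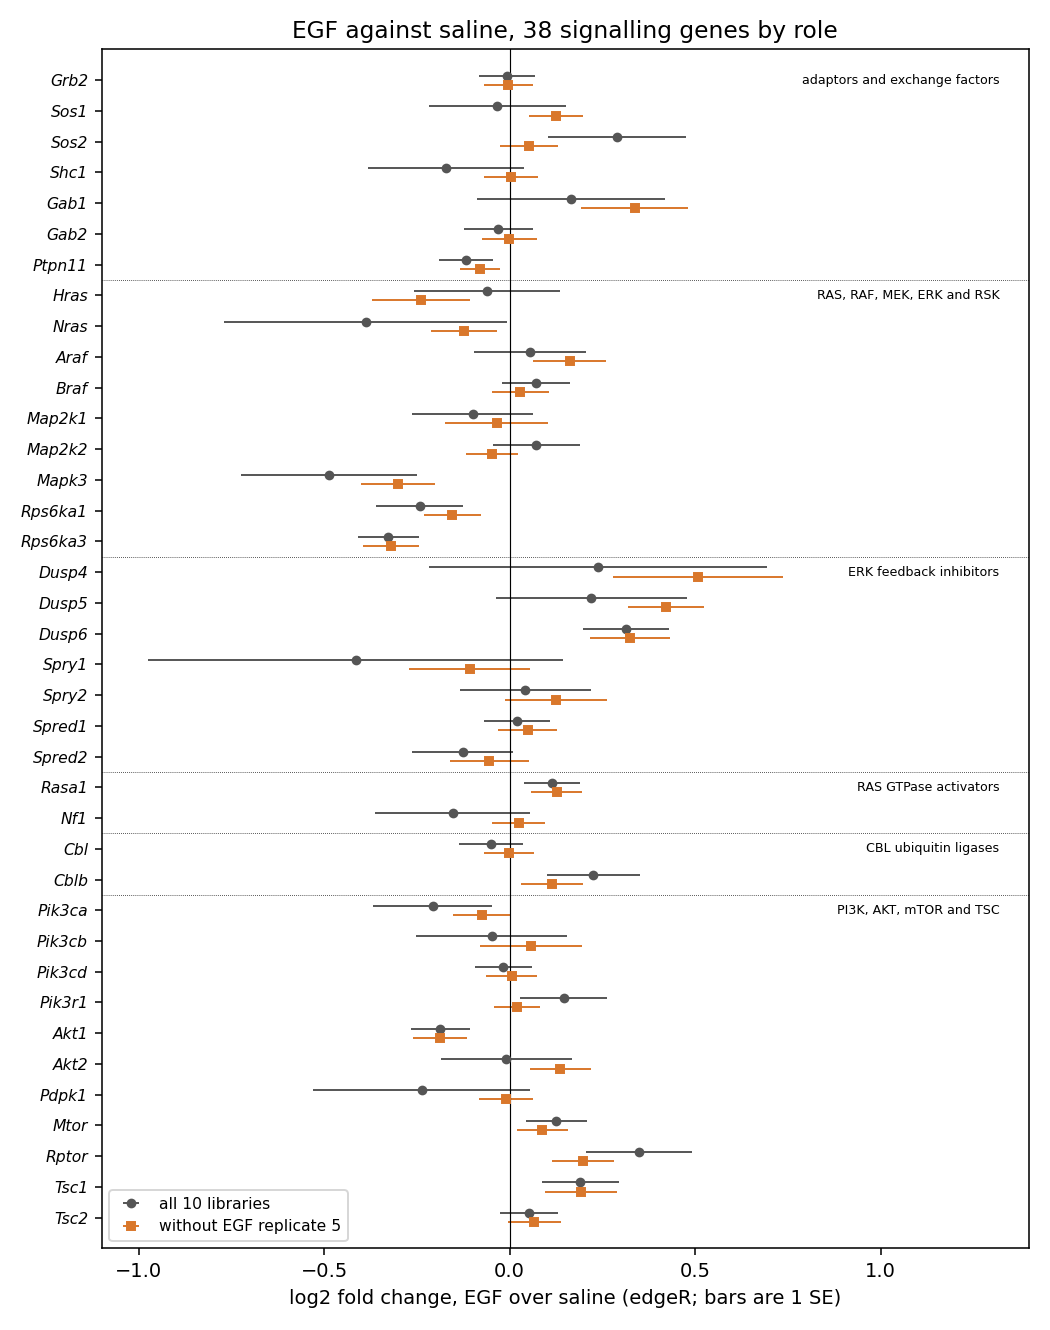
Log2 fold changes of EGF over saline (horizontal axis) for the 38 genes, grouped by role (vertical axis). Grey circles are the edgeR fit to all 10 libraries and orange squares the fit without EGF replicate 5, with bars of 1 SE; the bars of Nras, Dusp4, Spry1 and Pdpk1 shorten without that library, while Rps6ka3 (-0.33 and -0.32) and Akt1 (-0.19 in both) stay in place.

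Without EGF replicate 5, edgeR again called 0 of 38 members, where 0.0611% of 13104 genes were called. At an unadjusted p under 0.05 there were then 5 members higher (Gab1, Dusp4, Dusp5, Dusp6 and Rptor), beside 8.38% of all genes, and 3 lower (Mapk3, Rps6ka3 and Akt1), beside 7.39%. The log2 fold change exceeded 0 for 22 of 38 (57.9%), beside 50.0% of all genes. The 4 remaining EGF libraries lay wholly above saline for 1 member, Dusp5, and wholly below for 1, Rps6ka3, where 2.66% and 2.36% of all genes did so.

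EGF replicate 5 was the lowest of the 10 libraries for 20 members and the highest for 8. Over all genes tested it was the lowest for 47.7% and the highest for 33.7%. No member had 0 counts in it, against 14.0% of the genes tested, which reach to lower counts than the members. Of the 70 other pathway genes described below, some of them under the filter, 12 had 0 counts in EGF replicate 5. Around the saline mean, the 38 log2 ratios had an SD of 1.002 in EGF replicate 5 and between 0.10 and 0.26 in the other 9. Over all genes tested the SD was larger, at 1.70 in EGF replicate 5 and between 0.31 and 0.56 in the other 9. Among the members furthest down in EGF replicate 5 were Spry1, Nras, Dusp4, Pdpk1 and Mapk3, and among those furthest up Sos2, Rptor and Cblb.

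**Figure D2:**
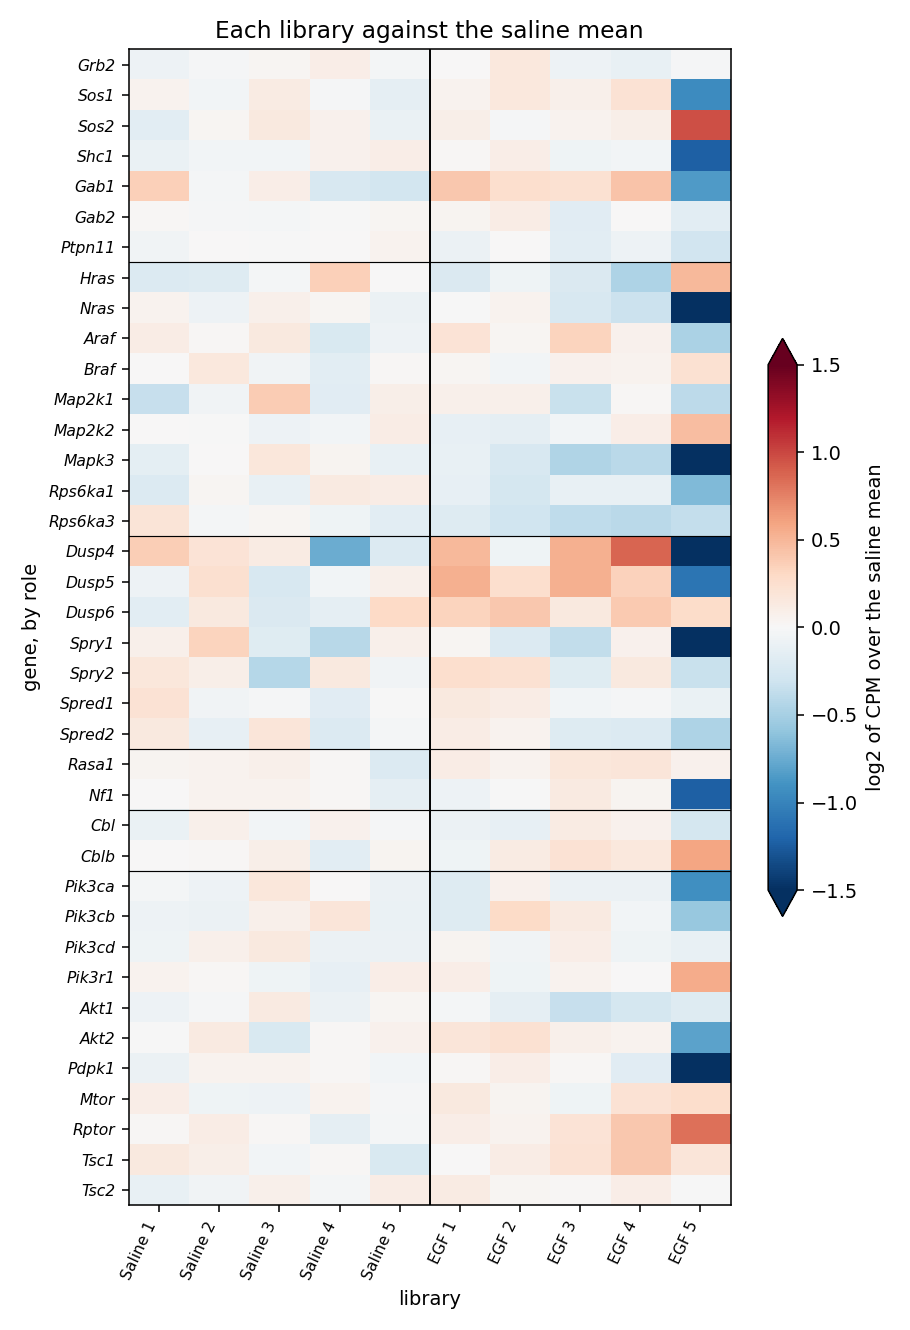
Log2 ratio of each library's CPM to the mean of the Saline libraries (colour, limited to 1.5 on either side; 0.5 CPM was added to both) for the 38 genes (rows, by role) in the 10 libraries (columns). EGF replicate 5 stands out in both directions, with Nras, Mapk3, Dusp4, Spry1 and Pdpk1 at the lower end of the scale.

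Of the 7 adaptor and exchange factor genes 2 had a log2 fold change above 0, and their median was -0.03. They were 4 of 7 without EGF replicate 5, with a median of 0.00442. Grb2, the adaptor that ties receptors to SOS, averaged 126 ± 9.60 CPM in the EGF and 126 ± 5.82 CPM in the Saline libraries (SD, n = 5 each), with a log2 fold change of -0.01 and a 95% interval from -0.17 to 0.16. Ptpn11, which encodes the phosphatase SHP2 that RAS activation requires, was at 115 ± 8.67 against 125 ± 3.27 CPM (interval -0.28 to 0.04). Gab2, a docking protein for SHP2 and PI3K, had the smallest relative spread of the members in saline, at 48.5 to 50.7 CPM, which is less than counting error alone gives. It was at 44.1 to 53.6 CPM with EGF.

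The related docking protein gene Gab1 was at 22.2, 17.0, 18.5, 14.5 and 14.2 CPM in Saline replicates 1 to 5, and at 22.9, 20.7, 20.3, 23.5 and 9.39 CPM in EGF replicates 1 to 5. Saline replicate 1 lay within the range of EGF replicates 1 to 4, and EGF replicate 5 lay below all others. The log2 fold change was 0.16 (SE 0.25, edgeR adjusted p = 0.823), and 0.34 (SE 0.14, adjusted p = 0.285) without EGF replicate 5. The exchange factor genes Sos1 and Sos2 took opposite places in that library, Sos1 at 40.9 CPM against 71.7 to 91.7 in the other 9, and Sos2 at 130.0 CPM against 59.3 to 73.1. With all libraries their log2 fold changes were -0.03 and 0.29, and without it 0.13 and 0.05. Shc1, an adaptor that brings GRB2 to receptors, was at 23.4 CPM in EGF replicate 5 and at 51.5 to 59.3 CPM elsewhere, and its log2 fold change went from -0.17 with that library to 0.00442 without it.

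In the kinase cascade, the gene of the ERK-activated kinase RSK2, Rps6ka3, had the smallest unadjusted p of the members. It was at 213, 182, 189.6, 178 and 166 CPM in Saline replicates 1 to 5 and at 162, 151, 142, 139.6 and 145 CPM in EGF replicates 1 to 5. Each EGF value was lower than each Saline value, that of EGF replicate 1 narrowly, and EGF replicate 5 lay among the other EGF libraries. The means were 148 ± 9.17 and 186 ± 17.3 CPM (SD, n = 5 each), with a log2 fold change of -0.33 (SE 0.08, edgeR unadjusted p = 0.00216, adjusted p = 0.552). Over all alternatives tried it stayed between -0.37 and -0.26, and its adjusted p between 0.134 and 0.833. The gene lies on chromosome X from 159210307 to 159368244 (GRCm38), and no exon of another gene overlaps it.

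Mapk3, which encodes ERK1, was at 36.0, 40.2, 45.0, 41.1 and 37.0 CPM in Saline replicates 1 to 5 and at 36.9, 33.7, 29.0, 30.0 and 12.6 CPM in EGF replicates 1 to 5. The groups overlapped only through EGF replicate 1, and EGF replicate 5 lay far below the rest. Its log2 fold change was -0.49 (SE 0.24, edgeR adjusted p = 0.552), and -0.30 (SE 0.10, adjusted p = 0.201) without that library. Rps6ka1, the gene of the related kinase RSK1, averaged 125 ± 18.7 CPM in the EGF and 147 ± 14.7 CPM in the Saline libraries (log2 fold change -0.24, SE 0.12, edgeR adjusted p = 0.552), and -0.15 without EGF replicate 5. Of the 9 genes of this tier 3 were fitted above 0 and 6 below, and their median log2 fold change was -0.10, against 2 above 0 and a median of -0.12 without EGF replicate 5.

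The RAS genes Nras and Hras, the RAF kinase genes Araf and Braf and the MEK genes Map2k1 and Map2k2 did not pass. Nras was at 68.0, 62.6, 69.3, 67.2 and 61.8 CPM in Saline replicates 1 to 5 and at 65.6, 68.5, 55.5, 52.5 and 9.25 CPM in EGF replicates 1 to 5. EGF replicates 3, 4 and, far below, 5 were under the whole saline range, and EGF replicates 1 and 2 within it. Its log2 fold change of -0.39 (SE 0.38, edgeR adjusted p = 0.723) became -0.12 (SE 0.09) without EGF replicate 5. Hras moved the other way in that library, which had its highest value, 37.3 CPM against 19.1 to 34.0 CPM in the other 9, and its log2 fold change went from -0.06 (SE 0.20) to -0.24 (SE 0.13). Braf was at 65.6 ± 4.53 against 62.5 ± 4.99 CPM and Araf at 46.5 ± 9.16 against 44.8 ± 4.56 CPM (SD, n = 5 each). Map2k1 had a log2 fold change of -0.10 (SE 0.16) and Map2k2 of 0.07 (SE 0.12). Without EGF replicate 5 the log2 fold changes were 0.03 for Braf, 0.16 for Araf, -0.04 for Map2k1 and -0.05 for Map2k2.

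Of the 7 feedback inhibitors of the ERK pathway 5 were fitted above 0, with or without EGF replicate 5, and their median log2 fold change was 0.04 with it and 0.12 without it. Without EGF replicate 5 the phosphatase genes Dusp4, Dusp5 and Dusp6 had the largest values of the 7, at 0.51, 0.42 and 0.32. The 6 other ERK phosphatase and feedback inhibitor genes tested, part of the wider list below, then ran from -0.22 to 0.19, with a median of 0.11. For Dusp5, which parted the groups without that library, and Dusp6, for which all EGF libraries lay close together, the bases before their start are shown. They are from RefSeq (build GRCm38.p6, plus strand) and end before the transcript, and they are shown because serum response factor, CREB and ETS factors carry ERK signals to promoters. Dusp5 is at chr19:53528895-53529108 and Dusp6 at chr10:99262981-99263230. Capitals mark matches, on either strand, to the CArG box of serum response factor and to TGACG, the core of the cAMP response element.
Dusp5: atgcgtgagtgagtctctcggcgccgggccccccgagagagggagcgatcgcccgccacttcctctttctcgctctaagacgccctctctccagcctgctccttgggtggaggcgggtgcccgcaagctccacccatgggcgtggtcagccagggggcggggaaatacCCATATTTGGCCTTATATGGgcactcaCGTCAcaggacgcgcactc
Dusp6: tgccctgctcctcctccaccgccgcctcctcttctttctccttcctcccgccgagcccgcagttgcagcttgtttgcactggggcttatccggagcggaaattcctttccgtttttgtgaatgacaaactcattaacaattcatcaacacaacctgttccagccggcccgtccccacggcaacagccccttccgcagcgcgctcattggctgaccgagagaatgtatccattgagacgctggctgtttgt

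Dusp5 held 2 CArG boxes, which abut each other, and 1 TGACG core apart from them, and Dusp6 held no match to either, nor to CCGGAA of ETS factors or TGANTCA of AP-1, which Dusp5 lacked too. Only the form CCGGAA of the ETS site was searched, so other forms may be present in both stretches. In the 250 bases before the start, 1.62% of 27025 genes had a CArG box in at least 1 window of theirs, and Dusp5 was the only one among the 34 members with a window. The TGACG core was found in 19.8% of all genes and 12 of the 34 members, CCGGAA in 13.6% and 12, and TGANTCA in 7.82% and 2. The genes of that table include noncoding ones, and a match is a description of letters, not of a bound site. Genes with several starts have several windows and so more chance of a match, and the motifs were chosen with the values of these genes known. Dusp4 was not among the 34.

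Dusp5, which encodes a nuclear phosphatase of ERK, was at 44.9, 55.9, 39.9, 46.0 and 49.9 CPM in Saline replicates 1 to 5 and at 68.5, 56.5, 68.6, 60.0 and 21.9 CPM in EGF replicates 1 to 5. EGF replicates 1 to 4 all lay above saline, EGF replicate 2 narrowly, while EGF replicate 5 was the lowest of the 10. The log2 fold change was 0.22 (SE 0.26, edgeR adjusted p = 0.769) with all libraries, and 0.42 (SE 0.10, unadjusted p = 0.00118, adjusted p = 0.140) without EGF replicate 5. It shares 22.1% of its exonic bases with Gm50394 on the opposite strand. That gene had 0 to 31 counts per library, and Dusp5 had a mean of 397. Without the strand setting of the counts, reads of both cannot be told apart there.

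Dusp6, the gene of the cytosolic ERK phosphatase MKP3, was at 58.5, 72.5, 56.4, 59.7 and 80.7 CPM in Saline replicates 1 to 5 and at 82.5, 87.1, 72.5, 86.1 and 79.3 CPM in EGF replicates 1 to 5. Saline replicate 5 lay within the EGF range and Saline replicate 2 at its lower edge, and EGF replicate 5 was among the other EGF libraries. Its means were 81.5 ± 5.91 and 65.6 ± 10.5 CPM (SD, n = 5 each), with a log2 fold change of 0.31 (SE 0.12, 95% interval 0.06 to 0.57, edgeR unadjusted p = 0.0204, adjusted p = 0.552). Over the alternatives it ranged from 0.27 to 0.40.

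Dusp4, the gene of the nuclear phosphatase MKP2, was at 18.9, 16.9, 15.8, 8.47 and 12.6 CPM in Saline replicates 1 to 5 and at 20.6, 13.9, 21.3, 26.9 and 2.94 CPM in EGF replicates 1 to 5. EGF replicates 1, 3 and 4 lay above saline, EGF replicate 2 within it and EGF replicate 5 below it. The log2 fold change was 0.24 (SE 0.46, edgeR adjusted p = 0.855), 0.51 (SE 0.23, adjusted p = 0.304) without EGF replicate 5, and -0.23 without EGF replicates 3 and 4.

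**Figure D3:**
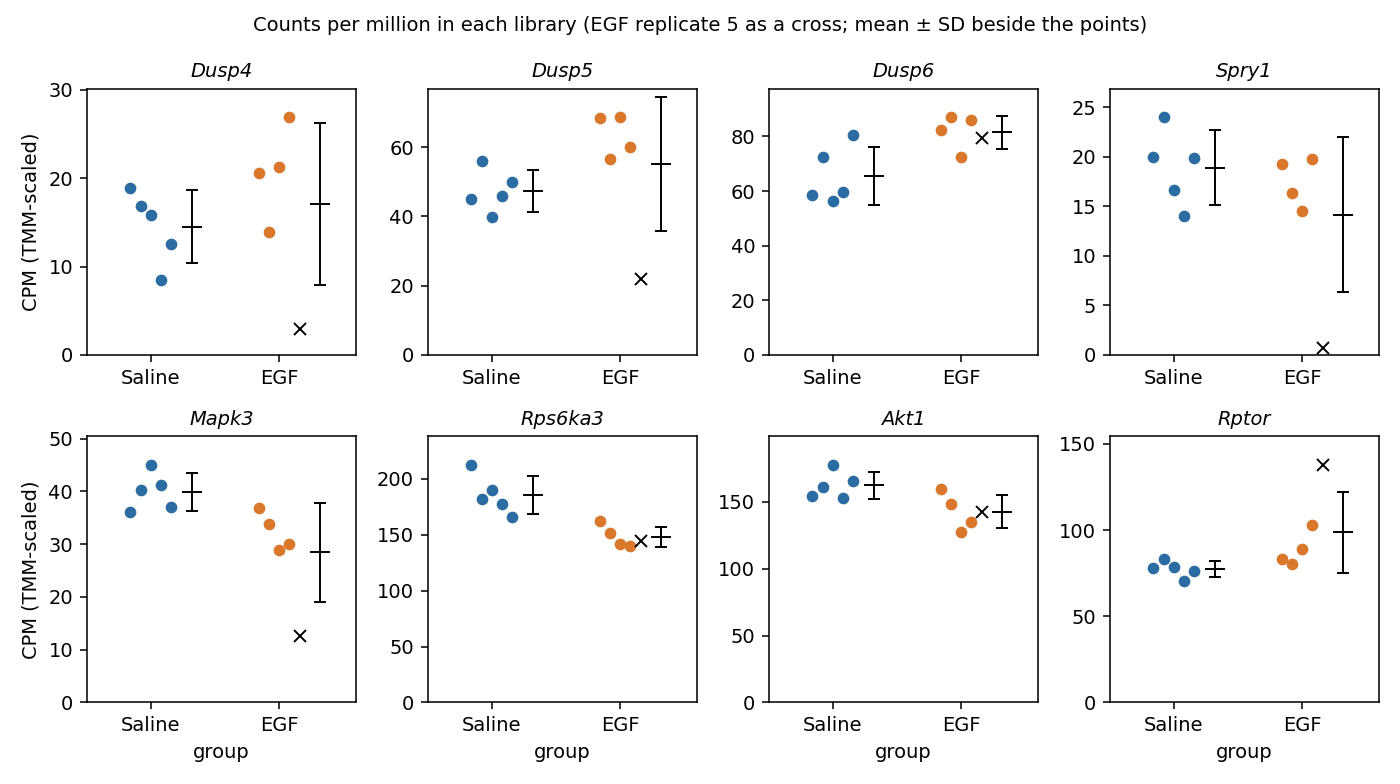
TMM-scaled CPM (vertical axis, from 0) in each library for 8 of the genes, with Saline as blue and EGF as orange points, EGF replicate 5 as a cross, and the mean ± SD (n = 5) beside each group. EGF replicate 5 lies with the other EGF libraries for Rps6ka3, Akt1 and Dusp6, and below all other libraries for Dusp4, Dusp5, Spry1 and Mapk3.

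The Sprouty and SPRED genes encode proteins that block RAS activation, and none of the 4 passed the test. Spry1 was at 19.9, 24.0, 16.6, 14.0 and 19.9 CPM in Saline replicates 1 to 5 and at 19.3, 16.4, 14.6, 19.8 and 0.700 CPM in EGF replicates 1 to 5. EGF replicates 1 to 4 lay within the saline range, and EGF replicate 5 held 5 counts of this gene. Its log2 fold change was -0.41 (SE 0.56, edgeR adjusted p = 0.801), and -0.11 (SE 0.16) without that library. It shares 24.4% of its exonic bases with Gm42922 on the opposite strand, which had 0 to 12 counts per library. Spry2 was at 24.2 ± 4.31 against 23.5 ± 3.73 CPM, Spred1 at 105 ± 7.74 against 104 ± 10.3 CPM and Spred2 at 42.5 ± 6.68 against 46.4 ± 5.51 CPM (SD, n = 5 each). Without EGF replicate 5 their log2 fold changes were 0.12, 0.05 and -0.05.

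The genes that end RAS and receptor signals by other means did not pass either. Rasa1 and Nf1 encode GTPase activators that switch RAS off. Rasa1 averaged 109 ± 4.45 CPM in the EGF and 101 ± 7.51 CPM in the Saline libraries (log2 fold change 0.11, SE 0.08, edgeR adjusted p = 0.619). Nf1 was at 31.5 CPM in EGF replicate 5 and at 68.0 to 82.0 CPM in the other 9, with a log2 fold change of -0.15 (SE 0.21) with that library and 0.02 (SE 0.07) without it. Cbl and Cblb encode ubiquitin ligases that send active receptors to degradation. Cbl was at 217 ± 23.3 against 224 ± 12.0 CPM. Cblb was at 52.0, 52.3, 55.0, 46.2 and 53.4 CPM in Saline replicates 1 to 5 and at 49.7, 56.5, 60.5, 57.7 and 78.6 CPM in EGF replicates 1 to 5. EGF replicates 2 to 5 lay above saline and EGF replicate 1 within it (log2 fold change 0.23, SE 0.13, edgeR adjusted p = 0.574), and the value was 0.11 without EGF replicate 5.

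On the PI3K side, 5 of 11 genes were fitted above 0, with a median log2 fold change of -0.01. When EGF replicate 5 was left out, 8 of 11 were above 0, with a median of 0.06. Pik3cd, which encodes the p110 delta catalytic subunit of leukocytes, averaged 154 ± 9.46 CPM in the EGF and 156 ± 11.8 CPM in the Saline libraries (95% interval of the log2 fold change -0.19 to 0.15). Pik3ca, the gene of the p110 alpha subunit, was at 67.6 ± 15.6 against 78.1 ± 5.61 CPM, with 41.0 CPM in EGF replicate 5, and had a log2 fold change of -0.21 with it and -0.07 without it. Pik3cb, that of p110 beta, was at 14.0 ± 3.11 against 14.5 ± 1.35 CPM (log2 fold change -0.05, and 0.06 without EGF replicate 5). The regulatory subunit gene Pik3r1 had the highest CPM of the members, at 311, 302, 287, 275 and 320.1 CPM in Saline replicates 1 to 5 and at 319.6, 285, 309, 299 and 440.4 CPM in EGF replicates 1 to 5. Outside EGF replicate 5 all EGF values lay within the saline range, and the log2 fold change went from 0.15 (SE 0.12) to 0.02 (SE 0.06) without that library.

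Akt1, which encodes a kinase that PI3K activates, was at 154, 161, 178, 153 and 166 CPM in Saline replicates 1 to 5 and at 159.6, 148, 128, 135 and 142 CPM in EGF replicates 1 to 5. EGF replicates 2 to 5 lay below all Saline libraries, and EGF replicate 1 within their range. Its means were 143 ± 12.2 and 162 ± 10.1 CPM (SD, n = 5 each), with a log2 fold change of -0.19 (SE 0.08, 95% interval -0.36 to -0.01, edgeR unadjusted p = 0.0399, adjusted p = 0.552), and the value was -0.19 also without EGF replicate 5. The related Akt2 was at 33.3 CPM in EGF replicate 5, below the 49.9 to 69.0 CPM of the other libraries. Its log2 fold change was -0.01 (SE 0.18) with that library and 0.14 (SE 0.08) without it. Pdpk1, whose kinase PDK1 activates AKT, was at 19.1 CPM in EGF replicate 5 and at 64.9 to 77.9 CPM elsewhere (log2 fold change -0.24 with it, -0.01 without it).

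Rptor, which encodes the mTORC1 scaffold raptor, was at 78.2, 83.5, 78.6, 70.7 and 76.1 CPM in Saline replicates 1 to 5 and at 83.3, 80.4, 89.0, 103 and 138 CPM in EGF replicates 1 to 5. EGF replicates 3, 4 and 5 lay above all Saline libraries, and EGF replicates 1 and 2 were within the saline range. The log2 fold change was 0.35 (SE 0.14, edgeR unadjusted p = 0.0321, adjusted p = 0.552) with all libraries and 0.20 (SE 0.08, adjusted p = 0.280) without EGF replicate 5. The kinase gene Mtor was at 123 ± 11.0 against 112 ± 6.24 CPM (log2 fold change 0.13, SE 0.08). Tsc1 and Tsc2 encode the inhibitory complex upstream of mTORC1. Tsc1 was at 72.0 ± 7.44 against 63.0 ± 5.98 CPM (0.19, SE 0.10, edgeR adjusted p = 0.568), and Tsc2 at 76.2 ± 2.97 against 73.5 ± 4.77 CPM (0.05, SE 0.08). Tsc2 shares 7.2% of its exonic bases with exons of Pkd1, which lies on the opposite strand and had 471 to 836 counts per library, where Tsc2 had 521 to 666.

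The levels of the members relative to each other were read as CPM per kilobase of annotated exon, since longer transcripts give more reads. In the Saline libraries Grb2 was highest at 43.4 ± 1.99 CPM per kilobase (SD, n = 5), followed by Akt1 at 39.6 ± 2.46, Rps6ka1 at 34.6 ± 3.45, Pik3r1 at 29.6 ± 1.81 and Pik3cd at 24.9 ± 1.88. The lowest were Gab1 at 3.40 ± 0.648 and Pik3cb at 2.02 ± 0.187. In this unit Akt1 was 4.36 to 6.20 times Akt2 in the Saline libraries and 3.60 to 7.43 times Akt2 in the EGF libraries. Pik3cd was 2.72 to 3.22 times Pik3ca and 10.2 to 13.9 times Pik3cb in the Saline libraries, and it was above both in all 10. Nras was 1.38 to 2.07 times Hras in the Saline libraries and lay above it in 9 of 10, the exception being EGF replicate 5, where the ratio was 0.174. Cbl was 3.38 to 4.32 times Cblb, Gab2 1.87 to 2.95 times Gab1 and Spred1 1.33 to 1.605 times Spred2 in the Saline libraries, and each lay above its partner in all 10. The length is that of all annotated exons together, which can exceed the transcript that the cells use. Ratios near 1, such as Sos2 over Sos1 (0.904 to 1.11 with saline) or, at its lowest, Map2k2 over Map2k1 (1.06 to 1.86), therefore rank nothing. The same limit holds for neighbours in the order above, such as Grb2 and Akt1, and for Nras over Hras and Spred1 over Spred2. Their order describes this unit only.

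**Figure D4:**
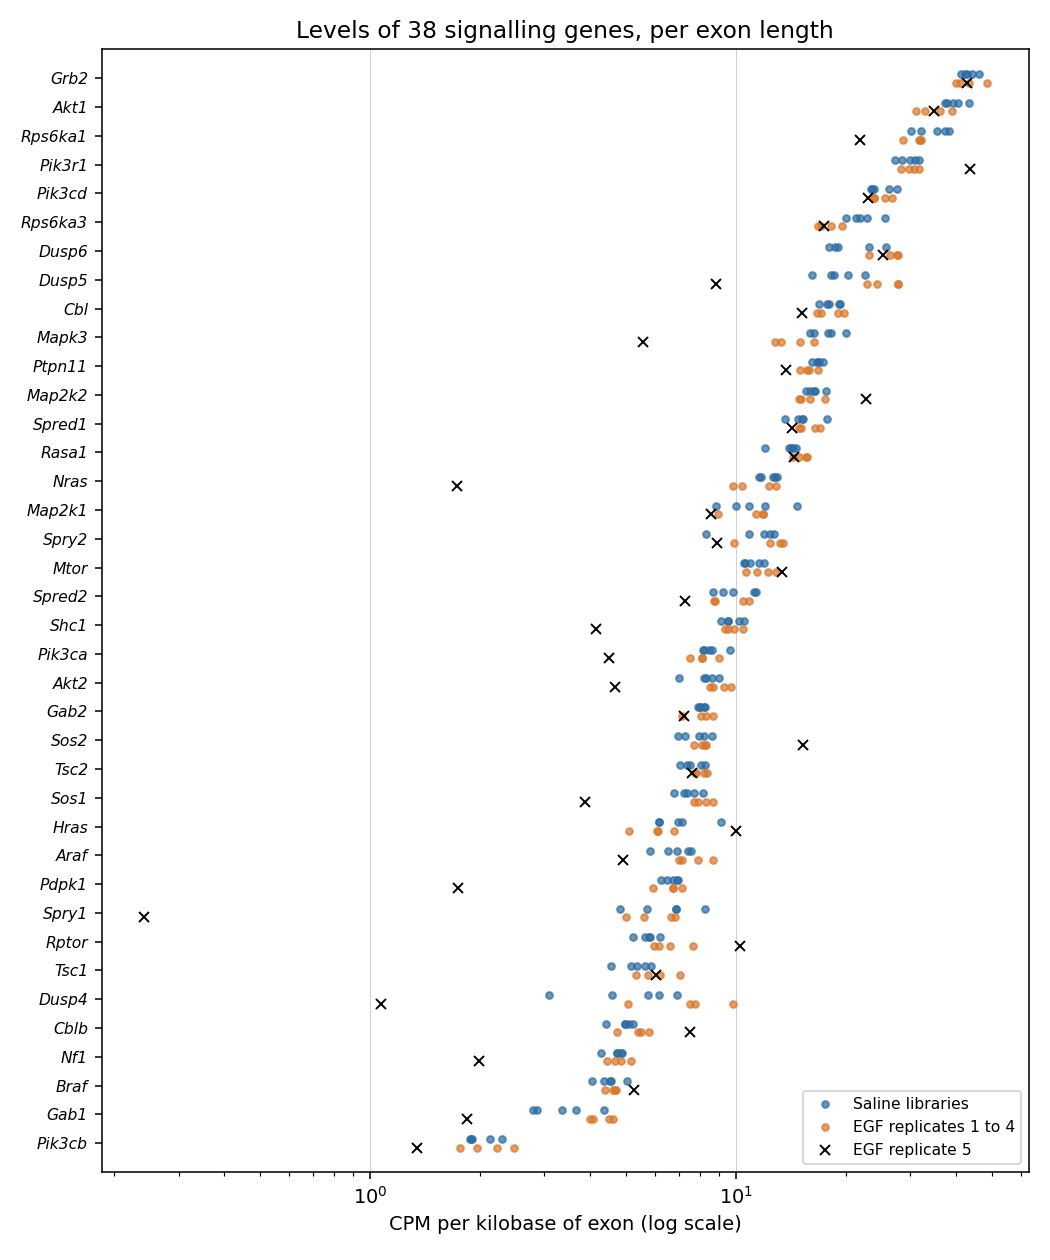
CPM per kilobase of exon (horizontal axis, log scale) of the 38 genes, ordered by the saline mean (vertical axis), with a point for each Saline (blue) and EGF (orange) library and a cross for EGF replicate 5. Grb2 and Akt1 lie at the top and Pik3cb at the bottom, and the points of both groups lie close together apart from the crosses.

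Members also differed in how steady they were between libraries of a group. Among the Saline libraries the coefficient of variation of CPM ran from 1.90% for Gab2 and 2.61% for Ptpn11 to 20.04% for Spry1 and 28.2% for Dusp4. Counting error alone gives 5.09%, 3.20%, 8.25% and 9.37% at their depths. The values of Gab2 and Ptpn11 lay below it, so their small spread is not read as a property of these genes. Among the EGF libraries the coefficient of variation ran from 3.89% for Tsc2 to 55.3% for Spry1. Leaving out EGF replicate 5, it ran from 3.12% for Braf to 25.7% for Dusp4, and was 14.2% for Spry1.

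A list of 70 other genes of these pathways was read in the same way. Irs1, Shc2, Rasgrf2, Spry3 and Pik3r3 did not pass the filter on low counts. Of the other 65, edgeR called 0 in either direction, and 2 were higher and 2 lower at an unadjusted p under 0.05, where 6.14% and 2.73% of all genes were. The log2 fold change exceeded 0 for 32 of them (49.2%, beside 48.5% of all genes), and the median was -0.02. With EGF replicate 5 left out, edgeR also called 0, had 5 higher and 5 lower at that threshold (beside 8.38% and 7.39% of all genes), and fitted 41 of 65 above 0 (63.1%, beside 50.0%), with a median of 0.05. The higher 4 with the smallest p were Rictor, the scaffold of mTORC2, at 109 ± 15.1 against 87.9 ± 8.03 CPM (log2 fold change 0.31, SE 0.11), Pik3r4, a regulatory subunit of the class III PI3K (0.29, SE 0.13), Mknk1, a kinase that ERK activates (0.28, SE 0.14), and the inositol phosphatase gene Inpp4b (0.45, SE 0.23). Rictor was at 80.1 to 101 CPM with saline and at 88.1 to 124 CPM with EGF, where EGF replicates 1 and 2 lay within the saline range. Without EGF replicate 5 the log2 fold change was 0.19 for Pik3r4, 0.26 for Rictor, 0.20 for Mknk1 and 0.38 for Inpp4b.

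The lower 4 were Gsk3a, a kinase that AKT inhibits, Rasa2, a RAS GTPase activator, Deptor, an inhibitor of mTOR, and the adaptor gene Crk. Gsk3a was at 52.0, 49.7, 51.2, 45.0 and 53.0 CPM in Saline replicates 1 to 5 and at 42.5, 44.3, 40.7, 43.1 and 35.9 CPM in EGF replicates 1 to 5. No EGF value reached a Saline value, though EGF replicate 2 came close (log2 fold change -0.28, SE 0.10, edgeR adjusted p = 0.552), and 28.3% of its exonic bases overlap 9130221H12Rik on the other strand. Deptor also did not overlap, at 41.8 to 44.6 CPM with EGF and 45.2 to 57.9 CPM with saline (-0.23, SE 0.10, edgeR adjusted p = 0.552). These are 2 of 65 genes lower without overlap, beside 1.65% of all genes. Rasa2 had a log2 fold change of -0.48 (SE 0.21) and Crk of -0.35 (SE 0.17), which were -0.32 and -0.22 without EGF replicate 5. By subgroup, 2 of 11 further adaptors, 6 of 11 RAS regulators, 5 of 9 MAP kinase genes, 4 of 6 phosphatases and feedback inhibitors, 8 of 11 PI3K and inositol phosphatase genes, 5 of 12 mTOR genes and 2 of 5 AKT substrates were fitted above 0. In the same order the counts without EGF replicate 5 were 6, 6, 4, 5, 8, 9 and 3.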

How the data were processed

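RNA-seq libraries of 5 EGF and 5 Saline samples were grouped by their titles. The authors deposited raw counts per gene as whole numbers. RNA came from a Qiagen kit, and a Clontech kit with rRNA depletion gave the libraries, per the labels' protocols. The builds GRCm38 and mm10, STAR and bcl2fastq 2.17 are named, per the submitters' processing notes; the counting tool, strand setting and annotation release were not given in the sources used here. Positions, exon lengths and overlaps came from GENCODE M21 (GRCm38).

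EGF was compared with saline in edgeR 4.0.16 (R 4.3.3): TMM scaling, filterByExpr (minimum count 10), quasi-likelihood F test and Benjamini-Hochberg adjustment over all genes, threshold 0.05. SEs come from the F statistic. DESeq2 1.42.0, limma-voom (limma 3.58.1), other scalings and filters, a replicate block and each library left out were alternatives. The fit was tested on simulated data with known fold changes, in which each gene otherwise had a common mean in all libraries. No simulated library was like EGF replicate 5, so that test does not cover its influence. The chi-square per degree of freedom between libraries was at least 5.94, so none repeated another. PCR copies cannot be told apart, so depth covers counting error only. All 38 members, and the 4 other pathway genes with the smallest p in each direction, are named by a fixed rule. Members and lists were chosen with earlier results of these data known.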

Additional observations from a re-analysis of the deposited data

Results flagged for a closer look

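In groups of 5 libraries, a library was marked where its gap to the nearest other exceeded 0.71 of the group's range (Dixon's test). Chance marks about 1 in 20 groups, and 13 of 76 groups were marked, 11 of them for EGF replicate 5. That library was the lowest of the EGF group, with the next lowest value beside it, for Sos1 (40.9 CPM, next 81.5), Shc1 (23.4, next 52.6), Gab1 (9.39, next 20.3), Nras (9.25, next 52.5), Dusp5 (21.9, next 56.5), Spry1 (0.700, next 14.6), Nf1 (31.5, next 70.3), Akt2 (33.3, next 60.6) and Pdpk1 (19.1, next 64.9). It was the highest for Sos2 (130.0 CPM, next 70.5) and Pik3r1 (440.4, next 319.6). Saline replicate 5 was the lowest of its group for Rasa1 (88.0 CPM, next 102) and Nf1 (68.0, next 74.9).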

How the results depend on the processing

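The 38 members were fitted under 18 alternatives, which gave 684 log2 fold changes; 643 kept their sign and 41, in 16 members, changed it. No member was called under any alternative, and the smallest adjusted p was 0.107, for Dusp5 with limma-voom. Over all genes, 1 was called with edgeR, 27 with DESeq2, 12 with limma-voom, 0 with library size alone, and 0 to 8 when each library was left out in turn, with 8 without EGF replicate 5. Leaving out EGF replicates 3 and 4, chosen after seeing the data, gave 0 genes, and log2 fold changes of 0.044 for Grb2, 0.096 for Hras, -0.059 for Araf and -0.23 for Dusp4. With limma-voom the sign changed to 0.0035 for Grb2, 0.11 for Sos1, 0.0089 for Gab2, -0.078 for Map2k2, 0.0097 for Spred2, 0.0035 for Nf1, 0.014 for Pik3cb, 0.017 for Pik3cd and 0.15 for Akt2, and with relative log expression factors to 0.00025 for Grb2; the cause was not tested. With each library left out in turn, log2 fold changes ran from -0.054 to 0.019 for Grb2, -0.10 to 0.13 for Sos1, -0.25 to 0.0044 for Shc1, -0.069 to 0.0018 for Gab2, -0.24 to 0.042 for Hras, -0.024 to 0.16 for Araf, -0.18 to 0.015 for Map2k1, -0.047 to 0.12 for Map2k2, -0.050 to 0.12 for Spry2, -0.022 to 0.078 for Spred1, -0.24 to 0.024 for Nf1, -0.15 to 0.057 for Pik3cb, -0.049 to 0.022 for Pik3cd and -0.079 to 0.14 for Akt2. The replicate block called 0 genes and 0 members, with 3 members (7.89%) and 4.33% of all genes at an unadjusted p under 0.05. Deviations of same-numbered libraries from their group mean correlated at -0.0782 to 0.0192. Of the 5 Saline libraries, 1 correlated best with the EGF library of its own number. EGF replicate 5 weighs on the EGF mean, and so on the deviation of every EGF library. This check therefore cannot decide whether the numbers pair libraries. Depth limits Spry1, Dusp4 and Pik3cb most, the members with the fewest counts.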
